A study of Mus musculus with 12 samples.

Results

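The comparison was between hyperoxic MLE-12 cells that received exosomes of M2 macrophages (Hyp + M2-Exo) and hyperoxic MLE-12 cells that did not (Hyp). It was made from 6 of the 12 RNA sequencing libraries of the study, the 3 labelled hyperoxia with exosomes and the 3 labelled hyperoxia alone. MLE-12 is a mouse cell line derived from alveolar type II (AT II) cells, the surfactant-producing cells of the lung. Cells of both groups were kept in 85% oxygen, and the labels give 24 h as the time. The Hyp + M2-Exo cells also received 10 μg/mL M2-Exo, given after the exposure to hyperoxia, and M2-Exo were prepared from the mouse alveolar macrophage line MH-S after treatment with IL-4. The other 6 libraries came from MLE-12 cells treated with 100 ng/mL lipopolysaccharide (LPS) in 21% oxygen, 3 without and 3 with the same dose of M2-Exo, and they share no library with the hyperoxia comparison. No untreated cells were among the libraries, so the comparison says how hyperoxic cells with and without M2-Exo differed and not how either differed from cells in room air. A single cell line was used, and nothing in the labels says that the 3 libraries of a group came from separate cultures, so p-values measure the spread between these libraries, which may be technical.

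Hyperoxia raises the formation of reactive oxygen species in lung epithelium, and cells respond through antioxidant enzymes, p53 and changes in mitochondria. Exosomes are small vesicles that carry proteins, lipids and RNA between cells, and recipient cells take them up largely by endocytosis. Macrophages polarised by IL-4 (M2 macrophages) are associated with repair and with the resolution of inflammation.

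The libraries held between 20231632 and 24074616 counted reads, and 13815 of 21002 genes with a read passed the filter on low counts and were tested. Libraries were as alike between the groups as within them, with a Pearson correlation of log2 CPM (counts scaled to a common library size of 1e6 reads) across genes of 0.99004 to 0.99321 within and 0.99036 to 0.99322 between groups. The median absolute log2 fold change was 0.075. Hyp + M2-Exo replicate 3 stood farthest from the others on the first principal component, which held 28.2% of the variance. The AT II markers were expressed in part. Abca3, a lipid transporter of the surfactant organelle, had 2825 to 3730 reads per library, the lung transcription factor Nkx2-1 had 785 to 1016 and surfactant protein C (Sftpc) had 240 to 334, whereas Sftpa1 had 0 and Sftpd at most 1. The epithelial keratin Krt8 had 2787 to 3689 reads, whereas the keratin Krt18 had at most 4. The epithelial adhesion molecules Cdh1 and Epcam had 60 to 94 and 6 to 18.

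Expression differed past the adjusted threshold for 14 genes (0.101% of those tested), of which 7 rose and 7 fell in Hyp + M2-Exo. Differentially expressed genes (DEGs) were those with a Benjamini-Hochberg adjusted p under 0.05 in edgeR's quasi-likelihood test. The risers act in actin turnover (Cap1), ribosome assembly (Rsl24d1), SUMO conjugation (Zfp451), protein folding in the endoplasmic reticulum (Txndc5), palmitoylation (Zdhhc24), messenger RNA transport and decay (Stau1) and RNA trimming (Eri2, an exonuclease family member). The genes that fell include the reader of N6-methyladenosine Ythdf3, the zinc finger gene Zfp68, the intermediate filament family member Iffo2, the sheddase Adam17, the nucleolar deubiquitinase Usp36, the creatine transporter Slc6a8 and the noncoding RNA C330011M18Rik. Of the 14, only Cap1 and Adam17 were members of the 44 lists of genes described below, each in a different list. The lists therefore could not show whether the 14 share functions. At 13 of the 14 the change was at most a log2 fold of 1.06 in size. By an unadjusted p under 0.05, 1171 genes differed (8.48%), 529 of them higher (3.83%) and 642 lower (4.65%). Without any test, the 3 Hyp + M2-Exo libraries lay wholly above the 3 Hyp libraries for 1057 genes (7.65%) and wholly below for 1098 (7.95%).

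Rsl24d1 (ENSMUSG00000032215, chromosome 9, 73113426 to 73123333, GRCm38), which encodes an assembly factor of the large ribosomal subunit, had 27.9, 29.4 and 26.9 CPM in Hyp and 57.4, 58.9 and 59.6 CPM in Hyp + M2-Exo. The groups did not overlap, and the means were 28.1 ± 1.26 and 58.6 ± 1.09 CPM (SD, n = 3 each). Its log2 fold change of 1.06 (SE 0.0549) was the largest rise among the DEGs (adjusted p = 0.000319, edgeR's quasi-likelihood test with Benjamini-Hochberg adjustment). Zdhhc24 (chromosome 19, 4878668 to 4885397), of the palmitoyltransferase family, had 20.9, 19 and 17.6 CPM against 38.5, 39.8 and 38.7 CPM, a log2 fold change of 1.02 (SE 0.0735, adjusted p = 0.00186 from edgeR's test). For Zfp451 (chromosome 1, 33761545 to 33814595), a SUMO ligase, the levels were 53.3, 52.4 and 53.8 CPM without and 98.6, 106.8 and 109.2 CPM with M2-Exo, a log2 fold change of 0.98 (SE 0.051, adjusted p = 0.000319 from edgeR's test). All 3 genes stood at about a doubled level in each Hyp + M2-Exo library.

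Txndc5 (chromosome 13, 38500273 to 38528824), a protein disulfide isomerase, rose from 112.1 ± 3.92 to 205.1 ± 15.2 CPM (SD, n = 3 each), with a log2 fold change of 0.87 (SE 0.0572, adjusted p = 0.00141 from edgeR's test). Eri2 (chromosome 7, 119768679 to 119794058) had 39.1, 49.2 and 43.1 CPM in Hyp and 74.8, 81.8 and 81.3 CPM in Hyp + M2-Exo, for a log2 fold change of 0.86 (SE 0.0855, adjusted p = 0.012 from edgeR's test). Cap1, whose product binds actin monomers, had a log2 fold change of 0.76 (SE 0.0333), and Stau1 (chromosome 2, 166947549 to 166996299), which binds double-stranded RNA, one of 0.56 (SE 0.0509), with adjusted p-values of 0.000254 and 0.00784 from edgeR's test. The Stau1 levels were 55.0, 54.3 and 53.3 CPM against 76.6, 79.6 and 84.3 CPM, again without overlap.

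Among the genes that fell, Ythdf3 (chromosome 3, 16183212 to 16217037), whose protein binds methylated adenosine in messenger RNA and affects its translation and decay, had 238.9, 238.5 and 232.0 CPM in Hyp and 128.1, 149.1 and 138.2 CPM in Hyp + M2-Exo. Its log2 fold change was -0.77 (SE 0.0542, adjusted p = 0.00186 from edgeR's test). Zfp68 (chromosome 5, 138603652 to 138619761) had 73.1, 67.4 and 61.1 CPM against 38.6, 36.0 and 36.4 CPM, a log2 fold change of -0.86 (SE 0.0736, adjusted p = 0.00603 from edgeR's test). Both were lower in each library with M2-Exo than in any without.

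Adam17 (ENSMUSG00000052593, chromosome 12, 21323509 to 21373632), which encodes the protease that releases TNF and several ligands of the EGF receptor from the cell surface, had 85.6, 88.7 and 85.4 CPM in Hyp and 61.6, 65.3 and 61.8 CPM in Hyp + M2-Exo. This amounted to a log2 fold change of -0.46 (SE 0.0456, adjusted p = 0.012 from edgeR's test), and the groups did not overlap. Iffo2 (chromosome 4, 139530548 to 139620382) fell from 44.5 ± 3.74 to 26.5 ± 0.522 CPM (SD, n = 3 each; log2 fold change -0.75, SE 0.0721, adjusted p = 0.011 from edgeR's test). The smallest changes were those of Slc6a8 (chromosome X, 73673150 to 73682502), with 97.2, 106.4 and 103.3 CPM against 76.0, 78.6 and 80.0 CPM (log2 fold change -0.39, SE 0.0477), and of Usp36 (chromosome 11, 118259651 to 118290244), with 133.0, 135.4 and 135.5 CPM against 110.6, 113.2 and 110.1 CPM (log2 fold change -0.27, SE 0.0334). Both had an adjusted p of 0.0423 in edgeR's test.

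C330011M18Rik (chromosome 8, 84065236 to 84067287), annotated as an antisense RNA that overlaps the transcription factor gene Rfx1 on the other strand, had 40, 27 and 34 reads in Hyp and 0, 2 and 0 in Hyp + M2-Exo. It fell at least 9.75-fold, taken against a floor of 3 reads in the smallest Hyp + M2-Exo library (adjusted p = 0.0238 from edgeR's test), a bound that covers counting error only. Rfx1 itself had 38.1, 38 and 40.4 CPM against 37.0, 35.3 and 35.5 CPM (log2 fold change -0.11, adjusted p = 0.602 from edgeR's test). Of the other DEGs, Cap1 overlaps Ppt1, Zfp68 Gm42815, Adam17 Iah1 and Eri2 Acsm3 and 2610020H08Rik on the opposite strand, and Rsl24d1 overlaps Gm20509 and Iffo2 Gm21969 on the same strand. None of the tested partners passed the adjusted threshold in edgeR's test. Whether the counting used strand is not given in the sources used here, so reads of such pairs could have been shared out between them.

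**Figure D1:**
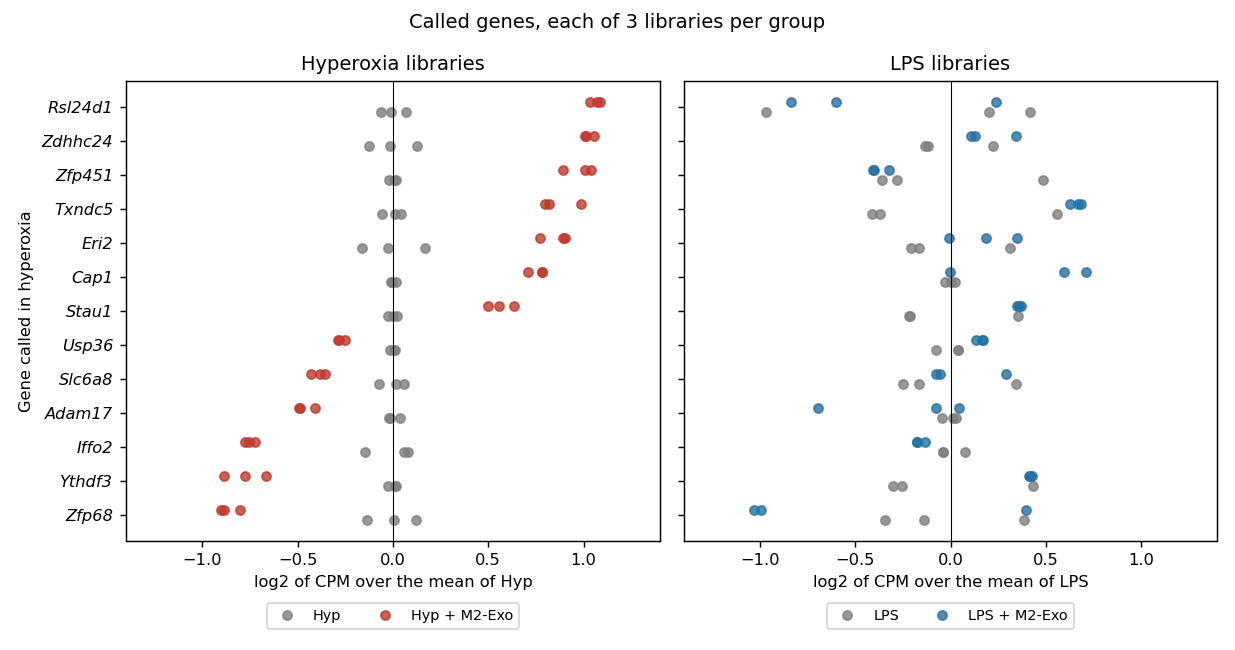
Levels of 13 of the 14 DEGs (C330011M18Rik, with reads of 0, is left out) in each library, as the log2 of CPM over the mean of the group without M2-Exo. Left, the hyperoxia libraries, where grey (Hyp) and red (Hyp + M2-Exo) points do not overlap for any gene. Right, the LPS libraries, where LPS (grey) or LPS + M2-Exo (blue) points of Rsl24d1, Zfp451, Txndc5, Ythdf3, Zfp68, Cap1, Adam17 and Slc6a8 lie at separate levels within 1 group.

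The same genes were read in the 6 LPS libraries, which had no part in choosing them. Of the 13 DEGs tested there, 0 passed the adjusted threshold when edgeR compared LPS + M2-Exo with LPS, where 0.187% of all genes did, and 6 had an unadjusted p under 0.05 (11.1% of all genes), 4 of them in the direction seen in hyperoxia. DESeq2 was not run on that comparison. In 8 of the 13 the highest library of an LPS group was at least 1.5 times the lowest library of the same group, as it was for 5.50% of the 10593 genes with a mean of at least 100 reads. Rsl24d1 had 44.4, 17.0 and 38.2 CPM in LPS and 21.9, 39.1 and 18.6 CPM in LPS + M2-Exo, a within-group ratio of up to 2.62. Txndc5 had 187.5, 367.9 and 193.1 CPM in LPS, and Zfp68 had 31.3, 32.1 and 84.3 CPM in LPS + M2-Exo. In 6 of the DEGs this ratio between replicates was at least as large as the fold change between the hyperoxia groups.

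The remaining DEGs stayed under the 1.5-fold ratio in the LPS libraries, some of them narrowly. Usp36 varied within the LPS groups by no more than 1.08-fold, Iffo2 by 1.08-fold, Zdhhc24 by 1.28-fold, Eri2 by 1.43-fold and Stau1 by 1.49-fold. For Stau1 this ratio was no smaller than its fold change between the hyperoxia groups. When all 12 libraries entered a fit, so that the LPS libraries also set the spread, 2 genes were called. Leaving out 1 hyperoxia library at a time, 8 of the 14 DEGs were called in each of the 6 fits (Cap1, Rsl24d1, Zfp451, Txndc5, Ythdf3, Zdhhc24, Zfp68 and Stau1), whereas Iffo2 and Eri2 were called in 3, Adam17 in 2 (adjusted p up to 0.0591, 0.0704 and 0.0673 in edgeR's test) and C330011M18Rik, Usp36 and Slc6a8 in 0 of them.

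Genes with such separate levels among replicates were also found in the hyperoxia libraries, where 168 of 10738 genes with a mean of at least 100 reads (1.56%) differed by 2-fold or more between libraries of the same group. The RNA-binding gene Rbm12b2 had 0.299, 11.4 and 16.6 CPM in Hyp and 17.2, 15.3 and 16.2 CPM in Hyp + M2-Exo, so a single Hyp library was low. Zbtb20, a transcriptional repressor, had 126.6, 6.13 and 63.9 CPM in Hyp and 32.1, 78.5 and 6.04 CPM in Hyp + M2-Exo. The predicted gene Gm21092 had 7.35 CPM in Hyp replicate 2 and between 107.2 and 118.3 CPM in the other 5 libraries.

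The other genes with the widest spread were Gm28062, which overlaps Hnrnpu, Gm20708, which overlaps Syngr2 and Afmid, the nonmuscle myosin gene Myh14 and the clustered protocadherin genes Pcdhgb5 and Pcdhga12. By edgeR's test none of the 8 passed the adjusted threshold. Of the 154 genes with a ratio of 2 or more in hyperoxia that also had 100 reads on average in LPS, 83 (53.9%) had such a ratio within an LPS group, as did 1.95% of all 10231 genes with enough reads in both. What sets these levels was not tested.

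**Figure D2:**
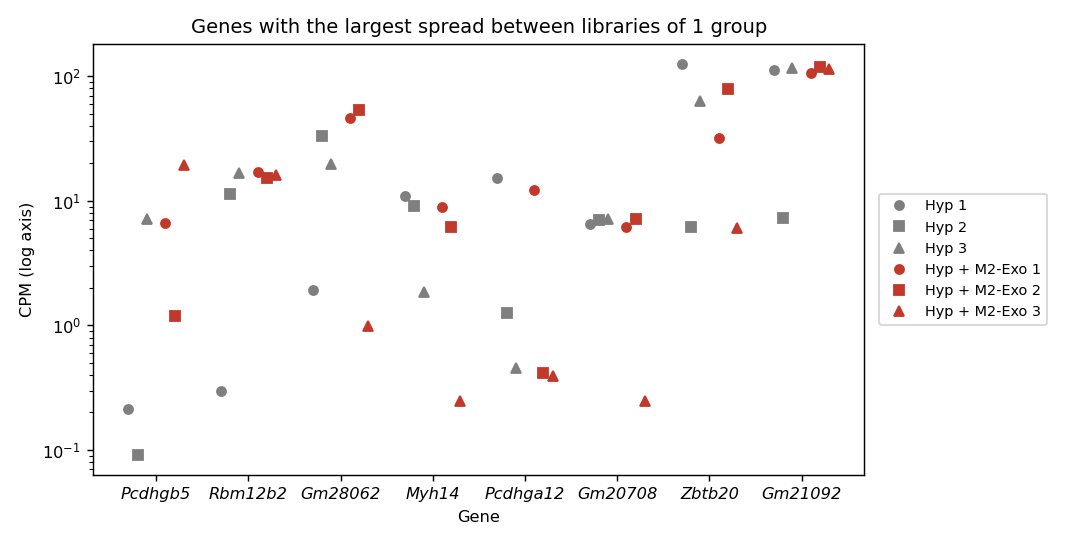
Level in CPM (log axis) of the 8 genes with the largest ratio between libraries of 1 group, among genes with a mean of at least 100 reads in the hyperoxia libraries. Grey points are Hyp and red points Hyp + M2-Exo, with circles, squares and triangles for replicates 1, 2 and 3; the low libraries belong to different replicates and to both groups, as in Zbtb20 with 6.13 CPM in Hyp replicate 2 and 6.04 CPM in Hyp + M2-Exo replicate 3.

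Below the adjusted threshold, genes with an unadjusted p under 0.01, at least 50 reads on average in the higher group and no overlap between the groups were ranked by the size of the change, predicted genes set aside. The rule was met by 68 genes on the higher side and 135 on the lower side, and the 10 with the largest change on each side are given here. None passed the adjustment in edgeR's test, so their values are a description. The gene closest to the threshold was Sirt1, which encodes an NAD-dependent deacetylase that acts on p53 and on regulators of mitochondrial genes. Sirt1 (chromosome 10, 63319005 to 63381704) had 90.3, 84.1 and 85.3 CPM in Hyp and 116.2, 130.5 and 111.5 CPM in Hyp + M2-Exo, for a log2 fold change of 0.46 (SE 0.0633, adjusted p = 0.0817 from edgeR's test). It overlaps Gm16145 on the other strand.

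On the higher side, Zfp62 had the largest value (log2 fold change 1.83, SE 0.524), with 11.4, 8.76 and 44 CPM in Hyp and 72.1, 76.7 and 80.0 CPM in Hyp + M2-Exo, so the Hyp libraries themselves differed by up to 5.03-fold. The histone deacetylase complex subunit Sap18 (0.85), the small nucleolar RNA host Snhg8 (0.51), the secreted glycoprotein gene Lgals3bp (0.49), the Golgi protein gene Golim4 (0.46), the chromatin reader Jade1 (0.45), Zfp677 (0.43), the exon junction complex subunit Magohb (0.38) and Zfp595 (0.37) followed by log2 fold change. Lgals3bp had 30.4, 29.7 and 30.3 CPM in Hyp and 49.7, 39.3 and 38 CPM in Hyp + M2-Exo. Jade1 had 39.3, 43.9 and 35.8 CPM against 56.2, 52.0 and 54.4 CPM, and the groups were separate.

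On the lower side stood the clustered protocadherin gene Pcdhgc5 (log2 fold change -2.92), the C-type lectin receptor gene Clec4e (-0.84), Zfp788 (-0.77), the histone H4 methyltransferase Suv420h2 (-0.60), the exchange factor gene Psd (-0.59), the AMP-activated kinase subunit Prkab2 (-0.57), the adhesion molecule gene Lrfn1 (-0.56), the transcription factor Foxp2 (-0.49), Fam49a (-0.47) and Tmem180 (-0.45). Foxp2, which takes part in lung epithelial development, had 25.7, 23.1 and 22.9 CPM in Hyp and 17.2, 18.4 and 15.3 CPM in Hyp + M2-Exo. Clec4e had 4.57, 5.17 and 5.76 CPM against 3.34, 3.31 and 1.98 CPM. Prkab2 had 22, 16 and 20.6 CPM against 12.3, 12.8 and 14.5 CPM. Groups were separate for each by the rule that chose them.

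Gene functions were described with 44 lists of genes. Of their members Cap1 (actin cytoskeleton) and Adam17 (extracellular matrix) passed the adjusted threshold in edgeR's test, so for all other members the values are given without a call. The nuclear-encoded respiratory chain holds the protein subunits of complexes I to V, which carry out oxidative phosphorylation. All 54 of its genes were tested, 39 had a positive log2 fold change and the median was 0.07, against -0.002 over all genes tested. An unadjusted p under 0.05 was found for 11 on the higher side and 1 on the lower side (22.2%, against 8.48% of all genes), and 0 passed the adjusted threshold in edgeR's test. The 1 on the lower side, Atp5g2, had the largest change of the list by size (log2 fold change -0.55). Leaving out single libraries gave medians from 0.05 to 0.09. The summed level of the list overlapped between the groups, with 6074.3, 6096.1 and 6194.4 CPM in Hyp and 6354.9, 6242.3 and 6116.3 CPM in Hyp + M2-Exo. When LPS + M2-Exo was compared with LPS, the median of the same 54 genes was 0.06. There 7 were higher and 0 lower past an unadjusted p of 0.05, which 11.1% of all genes passed.

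Ndufa2, a subunit of complex I, had 41.1, 39.3 and 40.7 CPM in Hyp and 47.7, 52.0 and 46.7 CPM in Hyp + M2-Exo (log2 fold change 0.27, SE 0.059, adjusted p = 0.464 from edgeR's test). Ndufa1, also of complex I, had 20.3, 20.1 and 19.1 CPM against 24.5, 23.3 and 22.2 CPM. For Uqcrh, the hinge protein of complex III, the levels were 43.2, 52.4 and 53.3 CPM without and 60.1, 62.0 and 57.7 CPM with M2-Exo. Atp5j2, a subunit of ATP synthase, had 101.1, 108.7 and 92.1 CPM against 123.9, 149.8 and 114.7 CPM (log2 fold change 0.36, SE 0.101). All 4, chosen by the smallest p in these same libraries, were higher in each Hyp + M2-Exo library than in any Hyp library. In the whole list 11 of 54 genes lay wholly higher and 1 wholly lower, where 7.65% and 7.95% of all genes did.

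The 13 mRNAs that mitochondrial DNA encodes for the same complexes had a positive log2 fold change in 12 cases, with a median of 0.04 and 0 past an unadjusted p of 0.05 on either side. After a correction for GC content, described with the GC values, 5 of the 13 were positive and the median was -0.003. Among 29 tested enzymes of the tricarboxylic acid cycle and fat oxidation, 0 were higher and 1 lower past an unadjusted p of 0.05. That was 3.45%, against 8.48% of all genes, and the gene was Ogdh (log2 fold change -0.18). In glycolysis, 4 of 18 enzymes were on the lower side (22.2%, against 4.65% of all genes) and 2 of 18 after the GC correction, with Tpi1 at 383.2, 368.2 and 429.2 CPM in Hyp and 345.2, 327.6 and 356.9 CPM in Hyp + M2-Exo (log2 fold change -0.20, SE 0.0604), and none on the higher side. Gpi1 (-0.17) and Pgam1 (-0.07) were also lower without overlap of the groups, and 0 glycolytic genes passed the adjustment in edgeR's test.

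**Figure D3:**
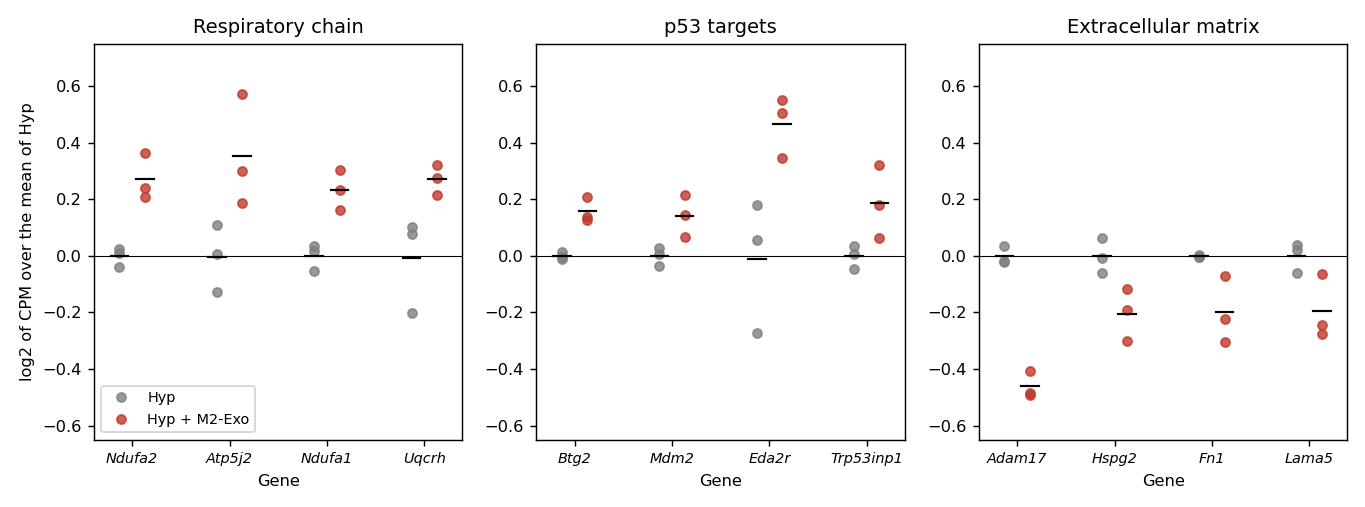
Levels per library as the log2 of CPM over the Hyp mean, for the 4 genes with the smallest p in each of the respiratory chain, p53 target and extracellular matrix lists. Points are libraries (grey Hyp, red Hyp + M2-Exo) and black bars are the means of these log2 values. The groups do not overlap for any of the 12 genes, which were chosen by p from these same libraries. Of all genes tested, 15.6% had groups that do not overlap. Adam17 alone among the 12 passed the adjusted threshold.

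Targets of p53, the transcription factor of the DNA damage response, lay more often above than below 0 in log2 fold change (18 of 28 tested). Of these 28, 5 had an unadjusted p under 0.05 on the higher side and 0 on the lower side (17.9%, against 8.48% of all genes). Of the same 28, 8 lay wholly higher in the Hyp + M2-Exo libraries and 0 wholly lower, where 7.65% and 7.95% of all genes did. The median log2 fold change was 0.05, between 0.02 and 0.07 with 1 library left out. Mdm2, the ubiquitin ligase that limits p53, had 191.9, 194.7 and 186.4 CPM in Hyp and 199.9, 211.3 and 221.6 CPM in Hyp + M2-Exo (log2 fold change 0.14, SE 0.0436). The growth arrest gene Btg2 had 52.0, 51.0 and 51.3 CPM against 56.2, 56.6 and 59.5 CPM. Eda2r, a death receptor, had 3.89, 3.09 and 4.23 CPM against 4.75, 5.48 and 5.30 CPM, and Trp53inp1 had a log2 fold change of 0.19 (SE 0.0661). No p53 target passed the adjustment in edgeR's test. The apoptosis list shares Bax, Bbc3 and Pmaip1 with the p53 targets. Of its 31 tested genes, 2 were on the higher side of an unadjusted p of 0.05 and 0 on the lower side (6.45%).

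The ribosome assembly list had 5 of 37 genes on the higher side of an unadjusted p of 0.05 and 0 on the lower side (13.5%, against 8.48% of all genes), with a median log2 fold change of 0.02. After the GC correction it had 3 and 0 (8.11%, against 6.72%). Npm1, the nucleolar chaperone, had 642.0, 620.5 and 629.3 CPM in Hyp and 676.5, 772.0 and 663.1 CPM in Hyp + M2-Exo. In the uncorrected fit, 4 of 18 host genes of small nucleolar RNAs and other long noncoding RNAs were on the higher side and 1 on the lower side. That was 27.8%, against 8.48% of all genes. Snhg5 had 24.4, 25.4 and 23.2 CPM against 26.7, 28.8 and 31.3 CPM (log2 fold change 0.25, SE 0.0758), whereas the imprinted antisense RNA Kcnq1ot1 had 14.0, 14.7 and 14.1 CPM against 11.8, 11.8 and 10.8 CPM (log2 fold change -0.31, SE 0.0748). Translation factors went both ways, with 5 of 39 on the higher and 3 on the lower side (20.5%). So did splicing factors, with 5 and 3 of 44 (18.2%). After the GC correction each of these 2 lists had 3 and 3. The shares were 15.4% for translation factors and 13.6% for splicing factors, against 6.72% of all genes. Eif3f had 164.1, 152.4 and 162.9 CPM in Hyp and 144.4, 134.6 and 137.9 CPM in Hyp + M2-Exo, and Rbm39 had 239.3, 253.3 and 240.9 CPM against 290.2, 263.2 and 272.5 CPM.

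The extracellular matrix list had 7 of 35 genes on the lower side of an unadjusted p of 0.05 and 0 on the higher side (20%, against 8.48% of all genes). Adam17, described above, was the member that passed the adjusted threshold, in 2 of the 6 fits with a library left out. Fibronectin (Fn1) had 262.8, 261.5 and 261.5 CPM in Hyp and 249.6, 224.6 and 212.3 CPM in Hyp + M2-Exo (log2 fold change -0.19, SE 0.0562). The basement membrane genes Hspg2 (perlecan; log2 fold change -0.20, SE 0.0531) and Lama5 (a laminin chain; -0.19, SE 0.0584) were also lower without overlap. The largest changes by size were positive, in the collagen genes Col1a2 (log2 fold change 0.85) and Col3a1 (0.83). Neither had an unadjusted p under 0.05 in the uncorrected fit. The list's median of -0.04 reached 0.003 with 1 library left out.

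In the list of endocytosis and vesicle traffic, 10 of 49 genes were on the lower side of an unadjusted p of 0.05 and 1 on the higher side (22.4%, against 8.48% of all genes). After the GC correction 5 were lower and 0 higher (10.2%, against 6.72%). The uptake genes held 8 of these lower genes among 24 tested, and the genes of endosomes and secretion 2 among 25. The lipoprotein receptor Scarb1 had 97.7 CPM in each of the 3 Hyp libraries and 86.1, 88.3 and 87.0 CPM in Hyp + M2-Exo (log2 fold change -0.17, SE 0.0361). Dynamin (Dnm2), which pinches off endocytic vesicles, had 222.0, 210.1 and 224.2 CPM against 202.5, 198.9 and 195.2 CPM. Caveolin (Cav1) had 69.7, 17.8 and 67.4 CPM in Hyp and 19.8, 16.7 and 13.6 CPM in Hyp + M2-Exo, for a log2 fold change of -1.63 (SE 0.452, adjusted p = 0.541 from edgeR's test), so Hyp replicate 2 lay within the range of the libraries with M2-Exo. The transferrin receptor Tfrc was the gene on the higher side (log2 fold change 0.10).

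NF-kB genes and cytokines held 5 of 35 genes on the lower side of an unadjusted p of 0.05 and 0 on the higher side (14.3%, against 8.48% of all genes). After the GC correction the share was 2.86%, with 1 gene on the lower side, against 6.72% of all genes. In the uncorrected fit 10 of the 35 had a positive log2 fold change (median -0.08, between -0.12 and -0.04 with 1 library left out). Nfkb2 had 417.4, 392.1 and 407.4 CPM in Hyp and 380.3, 379.5 and 377.8 CPM in Hyp + M2-Exo, and Bcl3, an atypical inhibitor of the same family, had 22.6, 19.6 and 20.4 CPM against 19.3, 16.7 and 16.1 CPM. In the actin cytoskeleton list, 2 of 69 genes were on the higher and 6 on the lower side (11.6%, against 8.48% of all genes), and 2 and 3 after the GC correction (7.25%, against 6.72%). Profilin (Pfn1), which like Cap1 binds actin monomers, had 284.5, 282.5 and 284.2 CPM against 247.0, 261.8 and 261.0 CPM (log2 fold change -0.15, SE 0.0336), and Tagln2 had a log2 fold change of -0.20 (SE 0.0399). Both lay on the other side of 0 from Cap1.

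Antioxidant genes were mixed. Prdx1, a peroxiredoxin that removes hydrogen peroxide, had 388.5, 398.6 and 384.0 CPM in Hyp and 438.9, 431.2 and 434.7 CPM in Hyp + M2-Exo (log2 fold change 0.16, SE 0.0297, adjusted p = 0.375 from edgeR's test). The metallothionein gene Mt2 had 102.2, 105.0 and 92.5 CPM against 108.2, 120.5 and 128.1 CPM (log2 fold change 0.25, SE 0.0721). Past an unadjusted p of 0.05, 1 of 28 targets of NRF2, the regulator of antioxidant genes, was higher and 1 lower. That was 7.14%, against 8.48% of all genes. Among 21 enzymes of oxidant defence, 2 were higher and 1 lower (14.3%). Of the 27 genes of the heat shock list, 2 were on the higher side and 1 on the lower side (11.1%). The higher ones were the mitochondrial chaperones Hspe1 (log2 fold change 0.15) and Hspd1 (0.09), and the lower one was Hspb1 (-0.14).

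Among 8 surfactant genes tested, 1 was higher and 1 lower past an unadjusted p of 0.05 (25%, against 8.48% of all genes). Sftpc had 11.5, 10.9 and 12.5 CPM in Hyp and 14.3, 12.7 and 13.6 CPM in Hyp + M2-Exo (log2 fold change 0.22, SE 0.0872, adjusted p = 0.575 from edgeR's test), and Abca3 had 157.9, 153.4 and 154.6 CPM against 143.6, 142.2 and 139.8 CPM (log2 fold change -0.13, SE 0.0322). The alveolar type I water channel Aqp5 overlapped between the groups, with 77.4, 70.9 and 116.6 CPM in Hyp and 107.0, 85.9 and 103.2 CPM in Hyp + M2-Exo. Of the other genes whose products the study names, Bax (log2 fold change 0.12) and Akt1 (-0.14) had an unadjusted p under 0.05, and the log2 fold change was 0.005 for Gpx4, 0.01 for Bcl2, 0.08 for Mki67, -0.03 for Zak, -0.09 for Srebf1 and -0.02 for Scd1. The ferroptosis genes Tfrc (0.10), Acsl4 (0.07), Slc7a11 (0.06) and Fth1 (-0.06), which the study does not name, were listed with them, and Tfrc had an unadjusted p under 0.05. Mapk14, which encodes p38α, had 46.4, 109.5 and 114.4 CPM in Hyp and 45.2, 41.0 and 117.5 CPM in Hyp + M2-Exo, at separate levels within both groups. All 16 missed the adjusted threshold in edgeR's test.

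Counts of further lists past an unadjusted p of 0.05, where 8.48% of all genes were, are given as higher and lower. They were 3 and 3 of 45 for the ATF4 and unfolded protein response. For mitosis they were 3 and 0 of 41, and for the G1 and S phases 1 and 4 of 40. After the GC correction they were 0 and 1 for mitosis (2.44%, against 6.72% of all genes). For the G1 and S phases they were then 2 and 0 (5%). The uncorrected counts were 2 and 1 of 33 for DNA repair and 3 and 3 of 49 for lysosome and autophagy. They were 1 and 1 of 37 for interferon-stimulated genes and 1 and 0 of 38 for TGF-beta and Hippo responses. They were 0 and 2 of 34 for Wnt and Notch, 2 and 1 of 31 for the proteasome and 1 and 1 of 18 for the circadian clock. For sterol synthesis they were 1 and 1 of 24, although 19 of the 24 had a positive log2 fold change, and the list's median of 0.09 lay between -0.004 and 0.16 with 1 library left out. Its sum was 3506 CPM in Hyp + M2-Exo replicate 3, against 2855 to 3137 in the other 5 libraries. Solute carriers had 2 and 2 of 22, immediate early genes 2 and 4 of 36, and cell junctions 1 and 2 of 21. The p38 and stress kinases had 1 and 2 of 24, as had adhesion to matrix. Growth factor signalling had 0 and 3 of 33, fatty acid and lipid synthesis 1 and 2 of 28, and type I markers 1 and 1 of 14. Antigen presentation and aminoacyl-tRNA synthetases each had 0 and 1 of 20. Histones had 0 and 1 of 11, and genes of RNA quality and culture stress 0 and 0 of 10.

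**Figure D4:**
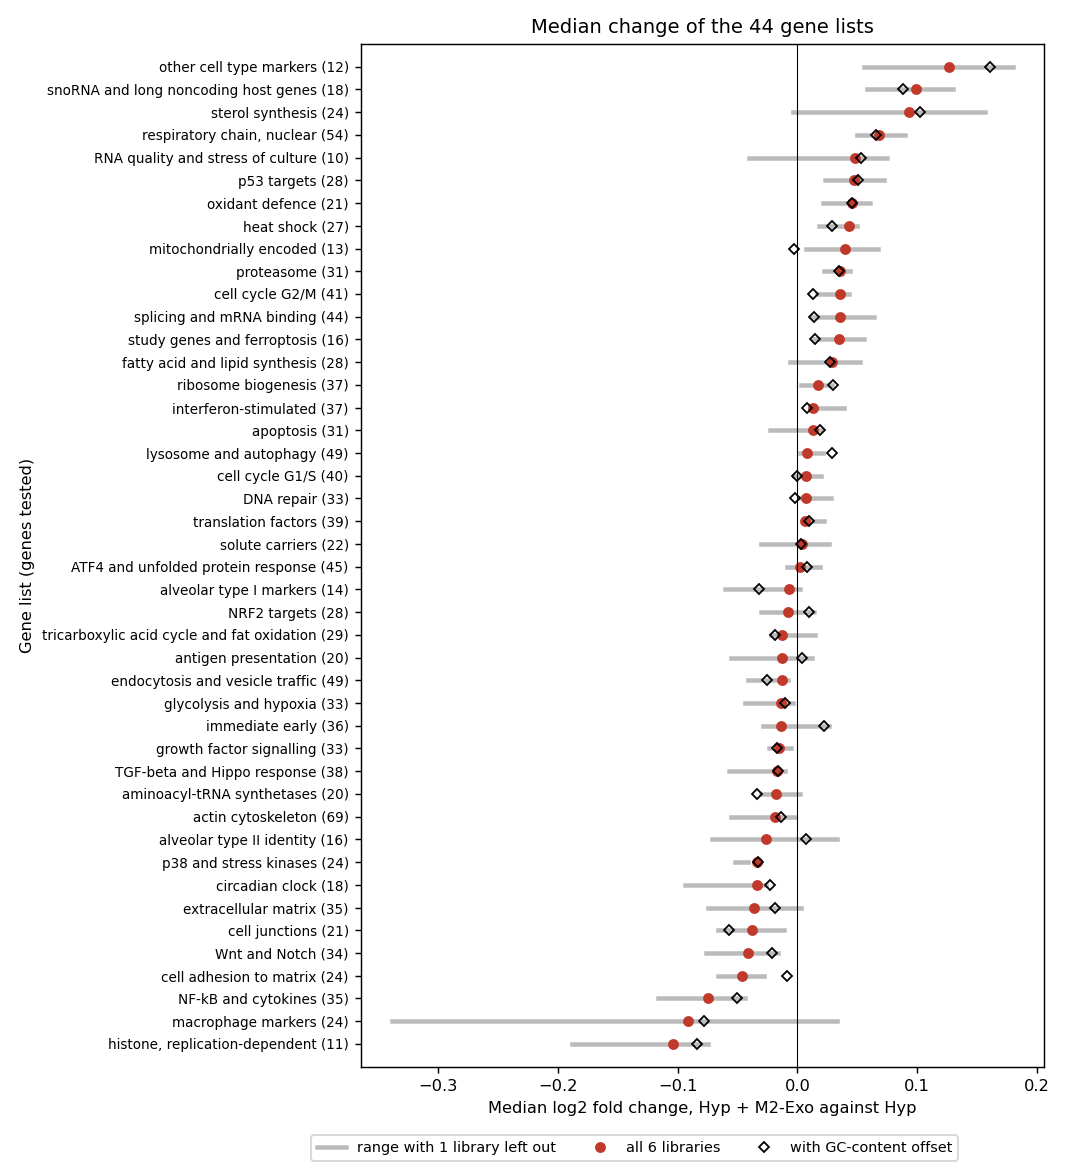
Median log2 fold change of Hyp + M2-Exo against Hyp over the tested members of each of the 44 lists (number in brackets). Red circles are from all 6 libraries, grey lines span the fits with 1 library left out, and open diamonds are after a correction for GC content; the macrophage marker line is the longest (-0.34 to 0.03), and the respiratory chain stays between 0.05 and 0.09.

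Markers of other cells were read in the same libraries. Genes of macrophages were detected in both groups, including the receptor gene Csf1r with 300 to 554 reads and Adgre1 with 188 to 400 reads per library, whereas Marco had at most 1 and the IL-4 induced gene Arg1 at most 3. Of 8 macrophage markers tested, 1 was higher and 7 were lower in Hyp + M2-Exo, and 0 passed the adjusted threshold in edgeR's test. Fcer1g alone among them had an unadjusted p under 0.05 (log2 fold change -0.38, 3.68 to 4.7 CPM in Hyp and 2.9 to 3.81 CPM in Hyp + M2-Exo). The sum of all 10 was 91.4 to 98.4 CPM in Hyp and 71 to 106.0 CPM in Hyp + M2-Exo. In bulk libraries fewer cells of a type and less RNA per cell cannot be told apart. The fibroblast gene Dcn had 7196 to 8596 reads, Lum at most 1, and the endothelial gene Cdh5 at most 1. Pecam1, an endothelial adhesion molecule gene, had 2.09 to 2.18 CPM in Hyp and 2.67 to 3.12 CPM in Hyp + M2-Exo (48 to 65 reads, log2 fold change 0.42), and the fibroblast receptor gene Pdgfra had 0.94 to 1.24 and 1.33 to 1.75 CPM (21 to 38 reads, 0.58). Both were separate between the groups with an unadjusted p under 0.05, and neither passed the adjustment in edgeR's test. Kdr, the other endothelial marker tested, went the other way, with 0.812 to 1.18 CPM in Hyp and 0.644 to 1.07 CPM in Hyp + M2-Exo (log2 fold change -0.21). Summed endothelial markers had 2.91 to 3.36 CPM in Hyp and 3.45 to 3.85 CPM in Hyp + M2-Exo. The summed levels of macrophage markers in the groups overlapped. Their part in the values above was not tested.

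The log2 fold changes followed the GC content of the genes. Transcript GC content, from the longest GENCODE M21 transcript, was known for 13765 of the genes tested (99.64%), and across genes its Spearman correlation with the log2 fold change was -0.27, a description over genes that share the same 6 libraries. In the LPS libraries the same correlation was -0.02. The fifth of genes with the lowest GC content (30.8% to 43.8%) had a median log2 fold change of 0.04, and the fifth with the highest (55.4% to 75.5%) one of -0.06. By an unadjusted p under 0.05, 203 genes were higher and 40 lower in the former, and 39 were higher and 302 lower in the latter.

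By library, the median deviation of the genes of highest GC content from the mean of the 6 libraries was 0.04, 0.008 and 0.05 on the log2 scale in Hyp and -0.004, -0.05 and -0.03 in Hyp + M2-Exo. Hyp replicate 2 and Hyp + M2-Exo replicate 1 lay closest to 0. Leaving out single libraries moved the correlation between -0.29 and -0.19. Whether the GC trend arose in the cells or in library preparation was not tested.

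**Figure D5:**
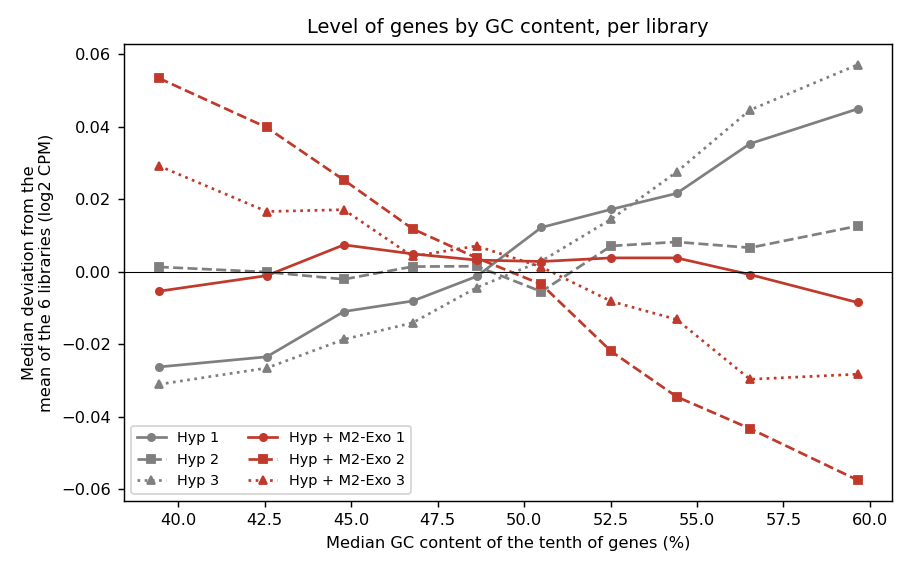
Genes were ordered by GC content and cut into 10 bins of equal size, and the median deviation of a bin from the mean of the 6 libraries (log2 CPM) is plotted against the bin's median GC content, 1 line per library (grey Hyp, red Hyp + M2-Exo). Hyp replicates 1 and 3 rise with GC content, Hyp + M2-Exo replicates 2 and 3 fall, and Hyp replicate 2 and Hyp + M2-Exo replicate 1 stay nearest to 0.

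A fit with a smooth GC trend removed from each library, chosen after the data were seen, called 12 genes (0.0869%), all among the 14, with 7 higher (0.0507%) and 5 lower (0.0362%). By an unadjusted p under 0.05, 471 genes were higher (3.41%) and 457 lower (3.31%). Usp36 and Slc6a8, with 55.9% and 56.8% GC, were no longer called (adjusted p = 0.169 each, edgeR's test), and the log2 fold changes of the other 12 had the same sign. The respiratory chain kept a median of 0.07 with 12 genes on the higher and 1 on the lower side of an unadjusted p of 0.05 (24.1%, against 6.72% of all genes), and the p53 targets one of 0.05 with 6 and 0. For the extracellular matrix the counts became 1 on the higher and 5 on the lower side of 35 (17.1%). With 4 of 24 on the lower side, the uptake genes had a share of 16.7%. The 13 mitochondrially encoded mRNAs had a median GC content of 37.1%.

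The effect of M2-Exo differed between hyperoxia and LPS for 5 of 14187 genes (0.0352%) when edgeR tested the interaction of M2-Exo and model over the 12 libraries, and for 1387 (9.78%) by an unadjusted p under 0.05. The choice of these 5 followed from their values. Usp36 was the 1 DEG of hyperoxia among them, with 62.4, 57.6 and 62.4 CPM in LPS and 68.5, 66.6 and 68.2 CPM in LPS + M2-Exo, so it was lower with M2-Exo in hyperoxia and higher in LPS. The difference of the log2 fold changes, hyperoxia minus LPS, was -0.43 (SE 0.0557, adjusted p = 0.0221 from edgeR's test). Acat2, an enzyme of sterol synthesis, had 105.4, 103.1 and 99.5 CPM in Hyp and 106.7, 113.5 and 115.7 CPM in Hyp + M2-Exo, against 214.2, 201.6 and 214.3 CPM in LPS and 164.9, 154.3 and 160.1 CPM in LPS + M2-Exo (difference 0.52, adjusted p = 0.00639 from edgeR's test).

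The zinc transporter gene Slc30a7 (difference -0.79), the GPI anchor enzyme gene Pigb (0.94) and the ubiquitin-conjugating enzyme gene Ube2s (-0.52) made up the rest. For Slc30a7 the hyperoxia groups overlapped, with 113.1 to 120.2 CPM in Hyp and 115.1 to 119.7 CPM in Hyp + M2-Exo. For Pigb the ranges were 15.9 to 16.2 and 15.6 to 17.5 CPM. Across the 12929 genes tested in both models the Spearman correlation of the 2 sets of log2 fold changes was 0.03, a description across genes.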

How the data were processed

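RNA of MLE-12 cells was sequenced by the authors after poly(A) selection with a TruSeq RNA kit on an Illumina NovaSeq instrument. The deposited table gave raw read counts and FPKM for 34745 mouse genes in 12 libraries (4 groups of 3). The submitters' processing notes name HISAT2 2.0.4, StringTie 1.3.0, edgeR and the build GRCm38; the counting program, its annotation and its strand setting are not given in the sources used here. The FPKM values, which the authors scaled by library size and gene length, were used in alternatives only. Samples were grouped by their labels, and 0 value columns were left unused.

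The deposited counts of the 6 hyperoxia libraries were filtered with filterByExpr, scaled by TMM and tested with edgeR 4.0.16 (quasi-likelihood F test, R 4.3.3), with Benjamini-Hochberg adjustment over all 13815 genes tested and a threshold of 0.05. Totals of 20231632 to 24074616 reads and a biological coefficient of variation of 9.1% set the precision. CPM are counts per 1e6 reads of TMM-scaled library size, and the floor of 3 reads covers counting error only. Alternatives used DESeq2 1.42.0, limma 3.58.1, other scalings, filters and samples. An offset from a lowess of each library on transcript GC content (span 0.3, genes with a mean of at least 50 reads) was added after the data were seen. The scripts were tested on simulated data.

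Genes named were all those called, up to 10 per direction by size among uncalled genes, up to 4 of each list described by smallest p, 16 genes, of the study and (Tfrc, Acsl4, Slc7a11 and Fth1) of ferroptosis, 1 of which is not reported here, the 8 with the widest spread within a group, and genes overlapping a called one. The comparison and the 44 lists, written from general knowledge, were chosen with earlier results of these data known. Atp5g2, Col1a2 and Col3a1 were named after their values were seen. Tests over gene sets were not run. Tables were written with Python 3.11.15, pandas 2.3.3 and numpy 2.4.6, and figures with matplotlib 3.10.9.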

Additional observations from a re-analysis of the deposited data

Results flagged for a closer look

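For 5 genes the effect of M2-Exo differed between hyperoxia and LPS in edgeR's quasi-likelihood test of the interaction, with Benjamini-Hochberg adjustment over 14187 genes. The log2 fold change in hyperoxia minus that in LPS was -0.79 for Slc30a7 (adjusted p = 0.000138), with a log2 fold change of 0.02 in hyperoxia and 0.81 in LPS. For Pigb the difference was 0.94 (adjusted p = 0.00246), from 0.05 in hyperoxia and -0.89 in LPS. For Acat2 it was 0.52 (adjusted p = 0.00639), from 0.13 and -0.39. For Usp36 it was -0.43 (adjusted p = 0.0221), from -0.27 and 0.16, and for Ube2s it was -0.52 (adjusted p = 0.0244), from -0.12 and 0.41. The number of such genes was 1 with the replicate number as a block within each model and 67 in DESeq2. The hyperoxia and LPS libraries also differ in oxygen, and batch and model cannot be told apart.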

How the results depend on the processing

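The count of 14 DEGs became 37 with DESeq2, 28 with edgeR's exact test, 8 with the replicate block, 7 with genes that overlap another gene left out, 7 with limma on log2(FPKM + 0.1) without a filter, and 2 with all 12 libraries in the fit. It was 14 with RLE size factors and with library size alone, and 12 to 21 with 1 library left out. Among the 14, 13 were called by DESeq2 and 8 with the replicate block. The fit without overlapping genes removed 7 of the 14 beforehand and tested fewer genes, so lower counts followed in part from the removal. The correlations of same-numbered libraries' deviations from their group means were -0.001, 0.047 and 0.028, and 4 of 6 libraries correlated best with their own number. Whether same-numbered libraries shared a batch is not given in the labels and cannot be told from so few libraries. The 1171 genes with an unadjusted p under 0.05 became 731 with DESeq2, 683 with edgeR's exact test and 715 without overlapping genes, and 762 to 1974 with 1 library left out (762 when Hyp replicate 1 was dropped, 1974 when Hyp + M2-Exo replicate 1 was). The 5 genes of the interaction became 67 with DESeq2 and 1 with the replicate block within model. The sign of the Bcl2 log2 fold change turned with the replicate block (-0.003), limma on log2(FPKM + 1) (-0.001) and the GC-content offset (-0.006), and with 1 library left out it ranged from -0.098 to 0.164 for Bcl2 and from -0.041 to 0.054 for Gpx4. Of the values of named genes under alternatives, 743 kept direction and side of the threshold, 50 lost the call, 19 gained one and 9 reversed. Of the list medians, 443 moved by less than the spread and 41 by more. The causes were not tested. With 3 libraries a group and a coefficient of variation of 9.1%, small changes of weakly expressed genes were not detectable at this depth.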
